A study of Mus musculus with 4 samples.

Results

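The ventral progenitor and floor plate factors described here are 9 transcription factor genes, Foxa2, Nkx2-2, Nkx2-9, Nkx6-1, Nkx6-2, Olig1, Olig2, Pax6 and Irx3, of the 24971 genes obtained when the deposited counts were summed by gene symbol. They are a list of known patterning factors taken by gene symbol, and the list was drawn up with earlier results of these data known. The samples were neural tubes of C57BL/6 mouse embryos at E12.5, with 2 libraries labelled Lbx1Δ/Δ and 2 labelled WT. Each library came from tubes of 1 genotype that were pooled within a litter. The labels do not say which part of Lbx1 was deleted, how many tubes a pool held or which axial levels were taken. Levels are given as CPM, counts scaled to the library total, and the libraries held 17250143 and 16853984 counts (labelled Lbx1Δ/Δ 1 and 2) and 20579803 and 16948717 counts (WT 1 and 2).

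In the ventral neural tube, Sonic hedgehog made by the notochord and floor plate forms a gradient that divides dividing progenitors into bands. Nkx2-2, Nkx2-9, Nkx6-1, Nkx6-2, Olig1 and Olig2 are switched on by the signal, whereas Pax6 and Irx3 are restricted by it, and pairs of these factors repress each other so that the borders of the bands become sharp. Each band then gives rise to its own neurons: the Nkx2-2 band to V3 interneurons and the Olig2 band to motor neurons first and oligodendrocyte precursors later. Foxa2 is the factor of the floor plate itself. Lbx1, the gene named in the genotype, acts in dorsal neurons, so the comparison sets ventral factors in tubes labelled mutant for a dorsal factor against those of WT tubes.

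Lbx1 itself was higher in the libraries labelled Lbx1Δ/Δ, with 1946 and 6520 counts, against 819 and 1379 counts in the WT libraries. Lbx1 had a single accession, and without the position of the deletion its counts do not check the genotype. All directions below are therefore between libraries as labelled. In pools of whole tubes, fewer cells of a type and less RNA per cell cannot be told apart. Nothing in the labels says that the pools of a genotype came from separate breedings, so the p-values measure only the spread between these samples.

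Of the 9 genes, 2 had no counts and 4 did not pass the low-count filter. Counts were deposited per RefSeq transcript accession. Olig1, Olig2, Nkx6-1 and Nkx2-9 had 1 accession each, and Foxa2, Nkx2-2, Nkx6-2, Pax6 and Irx3 had several. Pax6, with 8 accessions, and Irx3, with 2, were listed at 0 in all 4 libraries. Foxa2, with 3 accessions, had 7 counts in all. Totals below 10 counts were found for 61.3% of the 7924 genes with several accessions and for 41.3% of the 17047 genes with 1. Gapdh, a glycolysis gene that every cell uses, had 2 accessions and 4, 4, 3 and 10 counts. Mcm5, part of the helicase that replicates DNA, had 2 accessions and was listed at 0. Such genes were not all low. Kdr, an endothelial receptor gene that also had 2, was at 2156 and 2155 counts in the libraries labelled Lbx1Δ/Δ. In WT it was at 3010 and 2294 counts. These examples were picked after their values were seen. Of the 9 genes, 5 passed the low-count filter and were tested (Nkx6-1, Nkx6-2, Olig1, Olig2 and Nkx2-2).

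None of the 5 passed the genotype test of edgeR (quasi-likelihood, Benjamini-Hochberg adjusted p under 0.05 over 10757 genes). Over all genes, 0 of 10757 passed (0.0%), 55 had an unadjusted p below 0.05 (0.511%), and DESeq2 called 0 with 33 such genes. The edgeR fit had no block, so differences between the library numbers counted as spread within a genotype. Not passing it does not show that the genotypes were alike. The fitted log2 difference was above 0 for all 5, which means higher in the libraries labelled Lbx1Δ/Δ, and ran from 0.26 to 0.62 with a median of 0.28. When 1 library was left out, the low-count filter was applied again, here and for the lists below. The listed genes in such a fit could thus differ from these 5. Their median was 0.039 without WT library 1 and 0.057 without library 2 labelled Lbx1Δ/Δ. It was 0.49 without library 1 labelled Lbx1Δ/Δ and 0.58 without WT library 2. The median over all genes tested was -0.0026, and 49.5% of them had a fitted value above 0. Within both library numbers, 4 of the 5 were higher in the library labelled Lbx1Δ/Δ (all but Nkx2-2), against 30.3% of all genes tested, and 0 were lower, against 28.9%. Only for Nkx6-1 was the library labelled Lbx1Δ/Δ higher beyond counting error (95% exact binomial interval) in both numbers. The 5 genes share their libraries, and the other 4 could not be tested, so these counts do not describe the whole group.

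**Figure D1:**
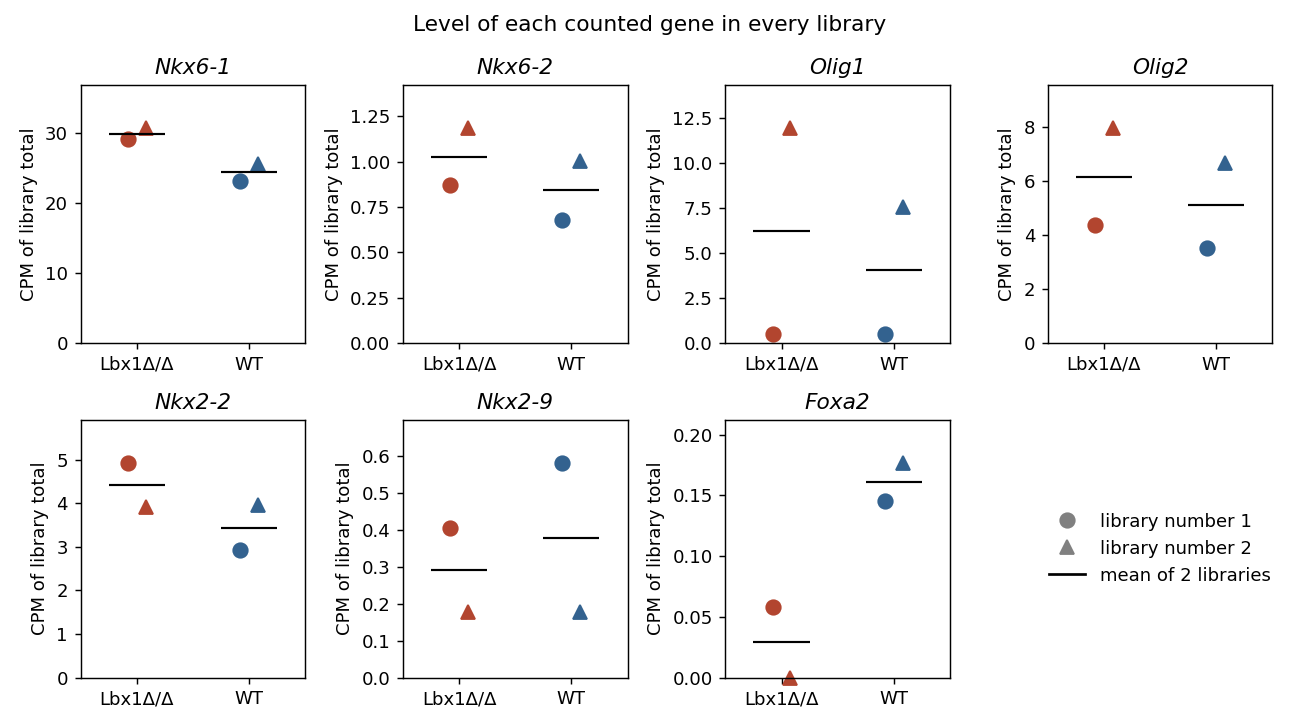
Level (CPM of the library total, linear axes that start at 0 and differ between panels) of the 7 genes with any count, in libraries labelled Lbx1Δ/Δ (red) and WT (blue). Circles are libraries numbered 1, triangles libraries numbered 2, and bars the mean of 2 libraries. Nkx6-1 is the 1 tested gene with both red points above both blue points, and Olig1 separates triangles from circles.

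Nkx6-1 (NM_144955), a homeodomain repressor that is needed for motor neuron and V2 interneuron progenitors, had the most counts of the 9 genes. That order is of deposited counts and not of expression, because 5 of the 9 genes had several accessions. Nkx6-1 itself had 1. It was at 29.2 and 30.8 CPM (503 and 519 counts) in libraries 1 and 2 labelled Lbx1Δ/Δ, against 23.2 and 25.7 CPM (478 and 435 counts) in WT libraries 1 and 2. The groups did not overlap, and the libraries within each group lay close together. Means were 30.0 ± 1.16 CPM in the libraries labelled Lbx1Δ/Δ and 24.4 ± 1.72 CPM in WT (SD, n = 2 each). Both libraries labelled Lbx1Δ/Δ exceeded both WT libraries in 11.3% of all genes tested and lay below both in 9.31%, so a gap between the groups was common. The fitted log2 difference was 0.28 (SE 0.20), which did not pass (edgeR unadjusted p = 0.228, adjusted p = 0.9998). Within number 1 the ratio was 1.26 (95% counting interval 1.11 to 1.43) and within number 2 it was 1.2 (1.05 to 1.37). These exact binomial intervals, here and below, compare 2 libraries and cover counting error only.

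Lists of other tissues and of neural progenitors are given beside this level. In the list for mesenchyme and cartilage, the fit was below 0 for 12 of 13 tested members, with summed levels of 5108 and 4585 CPM in the libraries labelled Lbx1Δ/Δ and 6974 and 5205 CPM in WT. None of the 13 passed the edgeR test, and their median log2 difference of -0.34 was 0.018 without library 2 labelled Lbx1Δ/Δ and 0.056 without WT library 1. Of 4 tested endothelial genes, the fit was above 0 for 2 and below 0 for 2. It was below 0 for 8 of 9 tested skeletal muscle genes (median -0.57) and above 0 for 1. It was also below 0 for 6 of 6 surface ectoderm genes (median -0.47) and 5 of 5 blood genes (median -0.33). Without library 2 labelled Lbx1Δ/Δ these 3 medians were 0.16, 0.06 and 0.32. Of 3 tested liver genes, the fit was above 0 for 2 and below 0 for 1. The 10 tested neural progenitor genes had a median log2 difference of 0.17, with 7 higher and 3 lower. The lower ones were Hes1 (log2 -0.25, SE 0.34), Nes (-0.03, SE 0.18) and Vim (-0.02, SE 0.18). Notch1, a receptor that keeps progenitors from turning into neurons, was at 315 and 357 CPM in the libraries labelled Lbx1Δ/Δ, against 226 and 293 CPM in WT. The part of these lists in the level of Nkx6-1 was not tested.

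Nkx6-2, the close relative of Nkx6-1 with an overlapping role in ventral progenitors, had few counts. It was at 0.870 and 1.19 CPM (15 and 20 counts) in the libraries labelled Lbx1Δ/Δ, against 0.680 and 1.0 CPM (14 and 17 counts) in WT. The groups overlapped, and library 2 was the higher of each group, though within counting error. All of its counts lay on a non-coding accession (NR_027857), while the coding accession was listed at 0. The ratio of Nkx6-2 to Nkx6-1 counts was 0.0298 and 0.0385 in the libraries labelled Lbx1Δ/Δ and 0.0293 and 0.0391 in WT. With the coding transcript at 0 that ratio says nothing of the true proportion of the proteins. In assembly GRCm38 the end of Nkx6-2 also overlaps the end of Inpp5a on the opposite strand, and no source used here gives the strand setting of the counting. Within number 1 the ratio of the library labelled Lbx1Δ/Δ to WT was 1.28 (95% counting interval 0.575 to 2.86). Within number 2 it was 1.18 (0.589 to 2.40), and both intervals included 1. The fitted log2 difference of Nkx6-2 was 0.28 (SE 0.50). It was 0.039 without WT library 1, 0.052 without library 2 labelled Lbx1Δ/Δ, 0.49 without library 1 labelled Lbx1Δ/Δ and 0.57 without WT library 2.

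**Figure D2:**
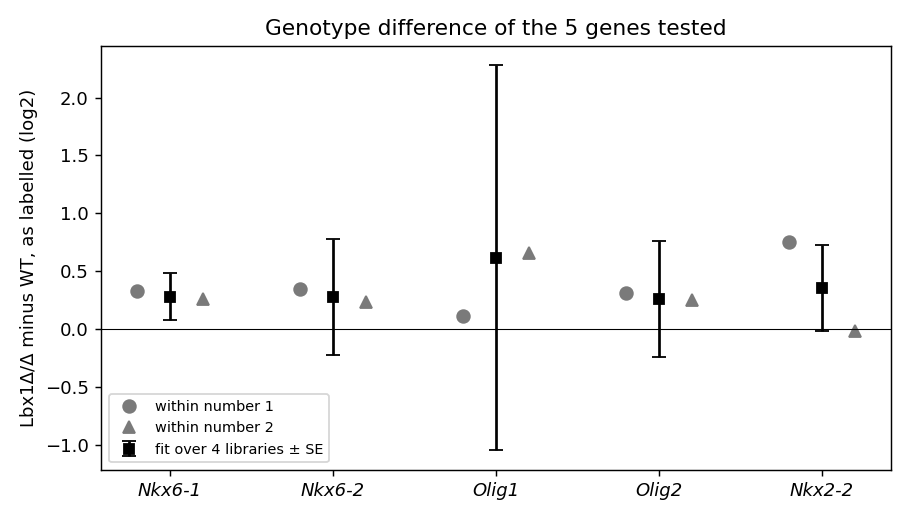
Difference between libraries labelled Lbx1Δ/Δ and WT (log2) for the 5 genes tested. Black squares are the edgeR fit over 4 libraries with its SE, circles the difference within number 1 and triangles that within number 2. Nkx6-1 has the smallest SE (0.20) and Olig1 the widest (1.66).

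Olig1 and Olig2 are basic helix-loop-helix factors of motor neuron and oligodendrocyte progenitors, encoded by neighbouring genes of chromosome 16. The level of Olig1 separated the libraries by number and not by genotype label. Olig1 (NM_016968) was at 0.522 and 11.9 CPM (9 and 201 counts) in libraries 1 and 2 labelled Lbx1Δ/Δ, against 0.486 and 7.55 CPM (10 and 128 counts) in WT libraries 1 and 2. Both libraries numbered 1 were near the lower limit of detection and both numbered 2 were high. Library 2 exceeded library 1 by a ratio of 22.9 in the libraries labelled Lbx1Δ/Δ (95% counting interval 11.8 to 50.7) and of 15.5 in WT (8.18 to 33.2). Of the 10757 genes tested, 2 were at least 10-fold higher in number 2 in both genotypes (0.0186%), and 35 were at least 4-fold higher (0.325%). Olig1 was 1 of the 2, and the other was Neurod6, a neuronal helix-loop-helix factor named after its values were seen. By the smaller of its 2 differences, Olig1 ranked 2 of 10757. These ranks are a description, since the 10-fold limit was set after the values were seen.

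Olig2 (NM_016967), which specifies the motor neuron progenitors, showed a smaller difference in the same direction. It was at 4.35 and 7.95 CPM (75 and 134 counts) in libraries 1 and 2 labelled Lbx1Δ/Δ, against 3.50 and 6.67 CPM (72 and 113 counts) in WT libraries 1 and 2. The higher library of each group was number 2, and the groups overlapped. The ratio of number 2 to number 1 was 1.83 (95% counting interval 1.37 to 2.46) in the libraries labelled Lbx1Δ/Δ and 1.91 (1.41 to 2.60) in WT. Olig1 thus had 0.120 and 1.5 counts per count of Olig2 in libraries 1 and 2 labelled Lbx1Δ/Δ, against 0.139 and 1.13 in WT libraries 1 and 2. The 95% counting intervals were 0.0528 to 0.240 and 1.2 to 1.88 for the libraries labelled Lbx1Δ/Δ, and 0.0639 to 0.270 and 0.873 to 1.47 for WT. The intervals of number 1 and number 2 did not overlap in either group, so the neighbouring genes differed between the numbers by unequal factors.

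**Figure D3:**
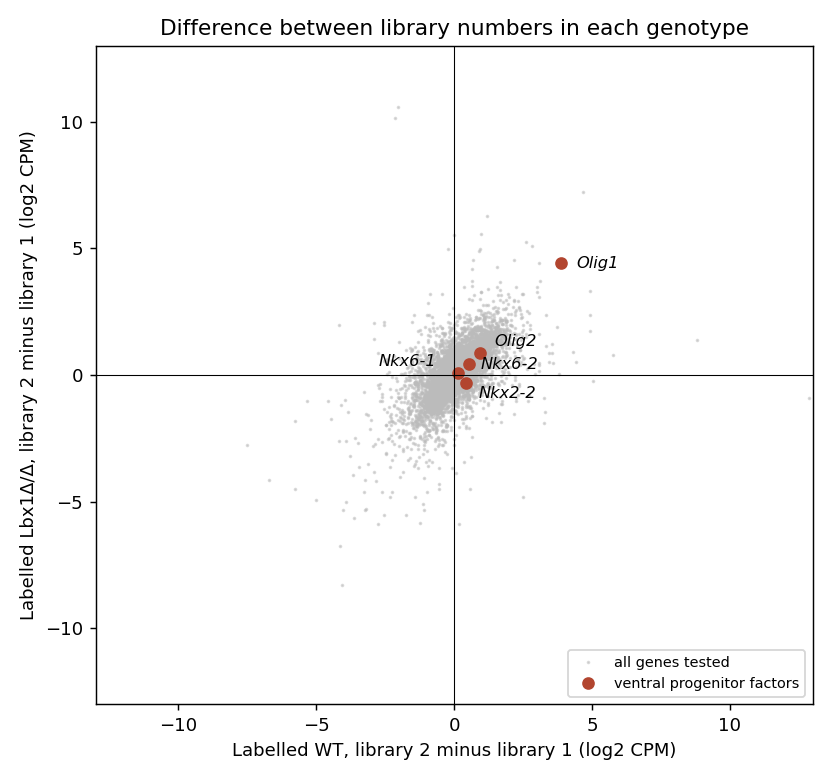
Library 2 minus library 1 (log2 CPM, 0.5 counts added) in libraries labelled Lbx1Δ/Δ (vertical axis) and WT (horizontal axis) for 10757 tested genes (grey) and the 5 tested ventral factors (red). Olig1 lies at 4.44 and 3.89, far from Olig2 at 0.87 and 0.93, and Nkx6-1 lies near the origin.

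By genotype label, Olig1 averaged 6.22 ± 8.06 CPM in the libraries labelled Lbx1Δ/Δ and 4.02 ± 5.0 CPM in WT (SD, n = 2 each). Its fitted log2 difference of 0.62 (SE 1.66) did not pass the edgeR test (unadjusted p = 0.727, adjusted p = 0.9998). It was -2.92 without library 2 labelled Lbx1Δ/Δ and -0.29 without WT library 1, so its direction depended on which libraries were kept. Within number 2, where counts were ample, the ratio was 1.58 (95% counting interval 1.26 to 1.99), and within number 1 it was 1.07 (0.386 to 2.94). Olig2 averaged 6.15 ± 2.55 CPM in the libraries labelled Lbx1Δ/Δ and 5.08 ± 2.24 CPM in WT (SD, n = 2 each), a log2 difference of 0.26 (SE 0.50). That difference was -0.22 without library 2 labelled Lbx1Δ/Δ and -0.12 without WT library 1. Within numbers 1 and 2 the ratio for Olig2 was 1.24 (0.887 to 1.74) and 1.19 (0.921 to 1.55), and both intervals included 1.

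Other gene groups also differed between the library numbers. Of all genes tested, 40.5% were higher in number 2 in both genotypes and 37.8% were lower. Of the 5 tested ventral factors, 4 were higher in number 2 in both (all but Nkx2-2) and 0 were lower. Ratios of number 2 to number 1 follow with counting intervals, first for the libraries labelled Lbx1Δ/Δ and then for WT. For Nkx6-1 they were 1.06 (0.932 to 1.2) and 1.105 (0.968 to 1.26). For Nkx6-2 they were 1.36 (0.664 to 2.86) and 1.47 (0.684 to 3.23). These intervals included 1, so only Olig1 and Olig2 were higher beyond counting error in both genotypes. Neuronal genes were higher in number 2 in both genotypes in 6 of 6 tested members, with median log2 differences of 0.85 in the libraries labelled Lbx1Δ/Δ and 0.86 in WT. Genes of proliferation were lower in number 2 in 7 of 7, with medians of -0.97 and -0.60. Embryonic globin and other blood genes were lower in 5 of 5, with medians of -1.82 and -1.98. Their part in the levels of Olig1 and Olig2 was not tested.

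Markers of oligodendrocyte precursors and glial fate did not follow Olig1 as a group. Of 7 tested, 2 were higher and 2 were lower in number 2 in both genotypes. The 2 higher were Slc1a3 and Fabp7. Slc1a3 was at 156.1 and 272.7 CPM in libraries 1 and 2 labelled Lbx1Δ/Δ, against 151.5 and 272.5 CPM in WT libraries 1 and 2. Fabp7 was at 779.6 and 1275 CPM in libraries 1 and 2 labelled Lbx1Δ/Δ, against 657.6 and 1209 CPM in WT libraries 1 and 2. Sox9 and Pdgfra were the 2 lower. A link of these genes to Olig1 was not tested. Sox10, a factor of oligodendrocyte precursors and of neural crest, was at 97.6 and 102.8 CPM in libraries 1 and 2 labelled Lbx1Δ/Δ, against 86.5 and 85.9 CPM in WT libraries 1 and 2. Pdgfra, the growth factor receptor of these precursors and of mesenchyme, had 30 and 11 counts in libraries 1 and 2 labelled Lbx1Δ/Δ, against 16 and 5 in WT libraries 1 and 2. It had 5 accessions, and no source used here says how reads shared by them were treated. Among neurons that arise from the ventral bands, 7 of 8 tested genes of motor and V3 neurons were higher in number 2 in both genotypes. Mnx1, a factor of motor neurons, was at 10.1 and 13.9 CPM in the libraries labelled Lbx1Δ/Δ, against 6.07 and 12.9 CPM in WT. Sim1, a factor of V3 interneurons, was the 1 gene lower in number 2 in both, at 16.8 and 8.49 CPM in the libraries labelled Lbx1Δ/Δ, against 15.7 and 11.0 CPM in WT.

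Nkx2-2, the homeodomain factor of V3 progenitors, did not follow the library number in the same way in the 2 genotypes. It was at 4.93 and 3.92 CPM (85 and 66 counts) in libraries 1 and 2 labelled Lbx1Δ/Δ, against 2.92 and 3.95 CPM (60 and 67 counts) in WT libraries 1 and 2. WT library 1 was the low one, and the other 3 libraries lay within 3.92 to 4.93 CPM. Within number 1 the ratio of the library labelled Lbx1Δ/Δ to WT was 1.69 (95% counting interval 1.2 to 2.39), and within number 2 it was 0.991 (0.694 to 1.41). The fitted log2 difference was 0.35 (SE 0.37), which did not pass (edgeR unadjusted p = 0.385, adjusted p = 0.9998). It was 0.17 without WT library 1, 0.18 without library 1 labelled Lbx1Δ/Δ, 0.52 without library 2 labelled Lbx1Δ/Δ and 0.58 without WT library 2. Most counts lay on 1 of its 2 accessions (NM_010919, with 77 and 63 counts in the libraries labelled Lbx1Δ/Δ and 51 and 66 in WT). How reads shared by the 2 were treated is not stated, so the levels of Nkx2-2 may be incomplete. Nkx2-2os, a non-coding gene that overlaps Nkx2-2 on the opposite strand, had 17 and 2 counts in the libraries labelled Lbx1Δ/Δ, against 15 and 9 in WT. Reads of the 2 cannot be told apart further here, because the strand setting is not given.

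Nkx2-9, which is expressed beside Nkx2-2 in the same progenitors and is lost from most of them as development goes on, was close to the limit of detection. It had 7 and 3 counts (0.406 and 0.178 CPM) in libraries 1 and 2 labelled Lbx1Δ/Δ, against 12 and 3 counts (0.583 and 0.177 CPM) in WT libraries 1 and 2. Both libraries numbered 2 were at 3 counts. The ratio of number 2 to number 1 was 0.439 (95% counting interval 0.0732 to 1.92) in the libraries labelled Lbx1Δ/Δ and 0.304 (0.0550 to 1.12) in WT, so a difference was not detectable at this depth. Its neighbour Nkx2-1, a factor of the ventral forebrain and of lung and thyroid, had 15 counts in WT library 1 and 0 in the other 3. The forebrain, midbrain and eye genes summed to 57.3 and 46.6 CPM in the libraries labelled Lbx1Δ/Δ, against 65.7 and 35.9 CPM in WT, with 2 of the 14 listed at 0. Barhl2, which is also a gene of dorsal spinal interneurons, made up 26.0 and 38.9 CPM of these sums in the libraries labelled Lbx1Δ/Δ and 16.1 and 26.6 CPM in WT. Emx2, a forebrain factor, had 333 and 6 counts in libraries 1 and 2 labelled Lbx1Δ/Δ, against 518 and 34 in WT libraries 1 and 2. Six6, an eye and hypothalamus factor, had 0 and 0 counts in the libraries labelled Lbx1Δ/Δ, against 54 and 4 in WT. Both had more counts in WT library 1 than in any other library. Since Nkx2-2, Nkx2-9, Foxa2 and Pax6 are also used in the brain, the part of such tissue in their counts was not tested.

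**Figure D4:**
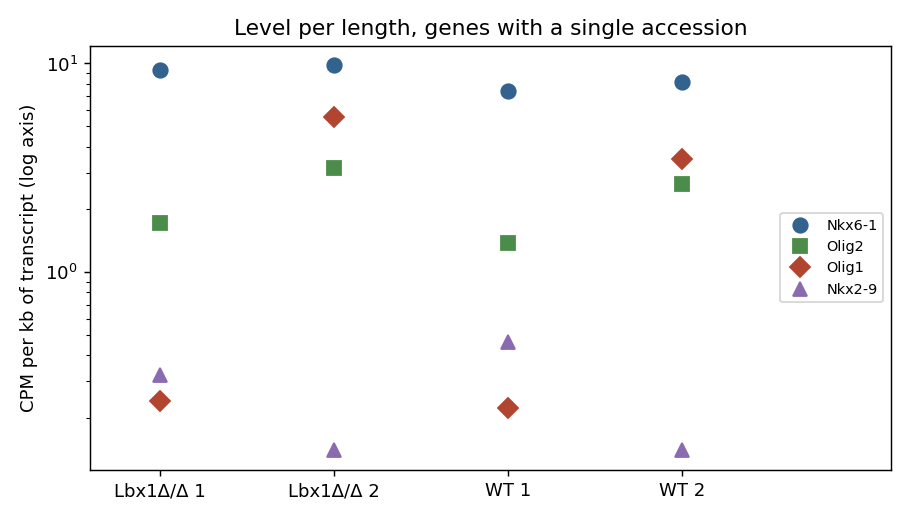
CPM per kilobase of transcript (log axis) of the 4 genes with a single accession, in each library. Nkx6-1 is highest in all 4 libraries, and Olig1 lies below Olig2 in both libraries numbered 1 and above it in both numbered 2.

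Per length, the 4 genes with a single accession could be compared with each other. The lengths were those of the GENCODE transcripts linked to the accessions, 3138 bases for Nkx6-1, 2530 for Olig2, 2162 for Olig1 and 1264 for Nkx2-9. Nkx6-1 was at 9.29 and 9.81 CPM per kb in the libraries labelled Lbx1Δ/Δ, against 7.40 and 8.18 CPM per kb in WT, the highest of the 4 in every library. Olig2 followed in number 1, at 1.72 CPM per kb in the library labelled Lbx1Δ/Δ and 1.38 in WT, with Olig1 at 0.241 and 0.225. In number 2 Olig1 stood above Olig2, at 5.52 against 3.14 CPM per kb in the library labelled Lbx1Δ/Δ and at 3.49 against 2.64 in WT. Nkx2-9 was at 0.321 and 0.141 CPM per kb in the libraries labelled Lbx1Δ/Δ and at 0.461 and 0.140 in WT. In number 1 its counts and those of Olig1 were too few to order the pair.

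Foxa2, the forkhead factor that specifies the floor plate, had 1 and 0 counts in libraries 1 and 2 labelled Lbx1Δ/Δ, against 3 and 3 in WT. All lay on 1 of its 3 accessions (NM_001291067). At 3 counts or fewer in every library no fold is given. Floor plate genes with a single accession were well covered in the same libraries. Shh, the ligand made there, was at 33.0 and 31.6 CPM in the libraries labelled Lbx1Δ/Δ, against 32.5 and 34.0 CPM in WT, a log2 difference of -0.05 (SE 0.19). Foxa1, the relative of Foxa2, was at 13.7 and 12.6 CPM in the libraries labelled Lbx1Δ/Δ, against 11.2 and 12.4 CPM in WT. Of 9 tested floor plate and notochord genes, the fit was above 0 for 5 and below 0 for 4, with a median of 0.07. Foxa2 also marks endoderm, and the 13 genes of an endoderm list, which includes Shh, summed to 67.0 and 42.3 CPM in the libraries labelled Lbx1Δ/Δ, against 79.6 and 50.9 CPM in WT. Of the 13, 5 were listed at 0. The fit was above 0 for 1 of the 4 tested (Ptf1a, log2 0.003, SE 0.43) and below 0 for 3, and 0 passed. Foxa3, a relative of Foxa2 in endoderm, had 0 and 0 counts in the libraries labelled Lbx1Δ/Δ, against 3 and 2 in WT. Foxa3 had too few counts to be tested and was picked after its values were seen. Epcam, an epithelial adhesion gene, had 295 and 103 counts in libraries 1 and 2 labelled Lbx1Δ/Δ, against 499 and 181 in WT libraries 1 and 2. The part of such tissue in the Foxa2 counts was not tested.

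Pax6, a paired-box factor of progenitors that is absent from the most ventral bands, and Irx3, a homeodomain factor of progenitors dorsal to the Olig2 band, were listed at 0 on every accession. A count of 0 allows a level of up to 0.174 and 0.178 CPM in libraries 1 and 2 labelled Lbx1Δ/Δ and up to 0.146 and 0.177 CPM in WT libraries 1 and 2 (3 counts). That bound covers counting error only, and how reads shared by several accessions were treated is not stated, so it is not read as a limit on expression. Pax6os1, a non-coding gene beside Pax6, had 4 and 2 counts in the libraries labelled Lbx1Δ/Δ and 1 and 6 in WT. Neighbouring progenitor bands were represented by other genes. Dbx1, of the band that gives V0 interneurons, was at 28.5 and 26.3 CPM in the libraries labelled Lbx1Δ/Δ, against 21.0 and 25.9 CPM in WT. Dbx2, which spans a wider intermediate region, was at 6.26 and 5.46 CPM in the libraries labelled Lbx1Δ/Δ, against 4.37 and 3.54 CPM in WT (log2 0.55, SE 0.33). Irx5, of the same family as Irx3, was at 35.0 and 32.5 CPM in the libraries labelled Lbx1Δ/Δ, against 32.0 and 36.5 CPM in WT (log2 -0.03, SE 0.20). In the list that holds these 3 intermediate genes, the fit was above 0 for 5 of 7 tested and below 0 for 2, with a median of 0.20. Pax7, of dorsal progenitors, was at 44.9 and 34.2 CPM in the libraries labelled Lbx1Δ/Δ, against 37.0 and 30.2 CPM in WT. None of these passed the edgeR test (adjusted p = 0.9998 for each). Of 12 tested dorsal progenitor and roof plate genes, the fit was above 0 for 9, and the median was 0.20, beside the median of 0.28 for the 5 tested ventral factors.

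The Hedgehog pathway, which patterns the bands, was described with a list of 14 genes. Of 9 tested, the log2 difference between the genotype labels was above 0 for 3 and below 0 for 6, with a median of -0.05. Sufu, Kif7 and Disp1 were among those listed at 0 and had several accessions each. Gli1, the transcription factor whose level rises with pathway activity, was at 70.1 and 39.9 CPM in libraries 1 and 2 labelled Lbx1Δ/Δ, against 62.0 and 36.8 CPM in WT libraries 1 and 2. Of the 9 tested, 8 were lower in number 2 in both genotypes and 0 were higher. Shh was the exception, and the medians were -0.72 in the libraries labelled Lbx1Δ/Δ and -0.50 in WT. Olig1 and Olig2 were higher in number 2, and Nkx6-1 differed by 0.08 in the libraries labelled Lbx1Δ/Δ and 0.14 in WT on the log2 scale. Hhip differed by -0.17 and -0.21. Ptch1, with 2 accessions, had 2 and 18 counts in the libraries labelled Lbx1Δ/Δ, against 6 and 3 in WT. Of 13 tested mesenchyme and cartilage genes, 9 were lower and 2 higher in number 2 in both genotypes. The part of tissue make-up or of pathway activity in these differences was not tested.

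Of the 9 genes, all but Olig1 (8) had at least 1 entry in the RefSeq promoter table (build GRCm38.p6). The 250 bases before the annotated start are shown for Olig2, Nkx6-1 and Nkx2-2, the genes with entries that had the most counts, to set the gene that differed by number beside 2 that did not differ in the same way. Capitals mark CCAAT or TATAAA on either strand, with the opposite strand of CCAAT read as ATTGG.
Olig2 (chr16:91225300-91225549, plus strand): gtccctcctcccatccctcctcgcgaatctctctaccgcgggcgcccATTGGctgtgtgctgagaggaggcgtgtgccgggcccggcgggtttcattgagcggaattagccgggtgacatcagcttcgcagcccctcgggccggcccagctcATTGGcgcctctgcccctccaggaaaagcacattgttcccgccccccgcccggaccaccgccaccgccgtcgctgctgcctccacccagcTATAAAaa
Nkx6-1 (chr5:101664712-101664961, minus strand): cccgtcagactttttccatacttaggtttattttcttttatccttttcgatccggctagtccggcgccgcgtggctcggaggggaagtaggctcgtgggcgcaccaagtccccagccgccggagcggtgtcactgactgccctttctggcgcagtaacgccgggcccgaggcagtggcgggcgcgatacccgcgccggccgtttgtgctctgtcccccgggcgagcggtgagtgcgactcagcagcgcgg
Nkx2-2 (chr2:147186403-147186652, minus strand): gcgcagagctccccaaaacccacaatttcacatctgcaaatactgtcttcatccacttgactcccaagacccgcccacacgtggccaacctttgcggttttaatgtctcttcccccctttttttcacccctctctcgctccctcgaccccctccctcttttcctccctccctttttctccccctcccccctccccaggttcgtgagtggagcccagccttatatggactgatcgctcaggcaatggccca
Olig2 held a TATAAA 8 to 3 bases before its start and an ATTGG at 203 to 199 and at 98 to 94 bases before it. These letters were not particular to Olig2. Of the 11 promoters of the 8 genes with an entry, 4 held CCAAT (Pax6, Foxa2, Nkx6-2 and Olig2). TATAAA was in 2 of the 11 (Foxa2 and Olig2). Nkx6-2 held CCAAT at 97 to 93 and at 69 to 65 bases before its start. TATAAA was present in 12.4% and CCAAT in 33.8% of 32851 promoters of the same length, on either strand. A perfect match to the GLI motif TGGGTGGTC, which Hedgehog effectors bind, was in 0.225% of them and in 0 of the 11 promoters of the 8 genes with an entry. Such matches describe these letters in this window only.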

How the data were processed

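Each of 4 libraries was RNA from pooled E12.5 mouse neural tubes. The submitters' processing notes list build mm9 and the tools TopHat2 2.1.1, featureCounts and edgeR. No source used here gives the annotation release, the strand setting or how shared reads were treated. As deposited, the authors' files hold raw, unnormalized counts for 41411 RefSeq accessions. Accessions were named from a RefSeq table of GRCm38 (41218) or GENCODE (97), 96 stayed as genes of their own, and counts were summed by symbol. Levels are CPM of the library total (16853984 to 20579803 counts). Genotype was tested two-sided with edgeR 4.0.16 in R 4.3.3 (filterByExpr with a minimum count of 10 and a total of 15, TMM, quasi-likelihood, no covariate, Benjamini-Hochberg over all tested genes); SE is the log2 difference over the root of F. With 2 libraries a group, an exact permutation test cannot go below p = 0.333. Alternatives were RLE and library-total scaling, DESeq2 1.42.0, no filter, the replicate number as a block, the most abundant accession, and leaving out each library. The 9 genes and the lists were chosen with earlier results of these data known. The 9 genes and Lbx1 were named by rule, and other list genes by the 4 smallest p-values of their list or by a short fixed set of patterning genes. Genes named outside this rule, after their values were seen, were Gapdh, Mcm5, Neurod6, Emx2, Six6, Foxa3 and genes listed at 0. Slc1a3, Fabp7, Irx5, Hes1, Nes and Vim were also named in this way.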

Additional observations from a re-analysis of the deposited data

How the results depend on the processing

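No gene passed the adjusted threshold in the genotype fit of edgeR (0 genes), nor under RLE scaling, library totals, DESeq2, no low-count filter, the most abundant accession, or without any 1 library (0 to 0 genes). With the replicate number as a block, edgeR called 92 genes (log2 difference above 0 for 29 and below 0 for 63). The edgeR unadjusted p was then below 0.05 for 1359 genes, against 55 without the block. None of the 5 tested ventral factors was among them (adjusted p = 0.451 for Nkx6-1 and 0.552 for Olig1). The labels do not state that a number pairs the pools. The deviations of same-numbered libraries from their group means correlated at 0.623 across 10757 genes, which are not independent replicates. Leaving out 1 library, the log2 difference ranged from -2.92 to 3.63 for Olig1 and from -0.22 to 0.79 for Olig2, changing sign for both, and from 0.23 to 0.35 for Nkx6-1. The Lbx1 log2 difference was 2.02 (SE 0.68) in the edgeR fit with no block, which did not pass (unadjusted p = 0.033, adjusted p = 0.9998). With the block in edgeR it was 1.88 (adjusted p = 1.19e-06). Leaving out 1 library, it ranged from 0.90 to 2.66. When 1 library was left out, 20 list medians moved by more than the spread between libraries and 64 did not; the cause was not tested. Mean levels moved by less than their SD under TMM scaling and the most abundant accession. Low counts limit Nkx2-9, Nkx6-2, Foxa2 and, in number 1, Olig1. The part of depth and of the treatment of shared reads in the counts of Nkx6-2 and Foxa2 was not tested.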
